A study of Mus musculus with 6 samples.

Results

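The miR-15/16 family is the set of microRNAs (miRNAs) that share the seed AGCAGCA, the stretch from base 2 to base 8 that pairs with target messenger RNAs. Its 6 mouse guide strands miR-15a-5p, miR-15b-5p, miR-16-5p, miR-195a-5p, miR-322-5p and miR-497a-5p were looked up by name in a table of 620 miRNAs. A row was present for 5 of them, and for miR-322-5p no row was found, so it was not analysed here. The table came from small RNA of extracellular vesicles (EVs, membrane particles released by cells) shed by mouse PBMCs, peripheral blood mononuclear cells, a fraction made up of lymphocytes and monocytes. The mice are labelled as wild type (WT). The control group is 3 libraries labelled untreated, and the IS group is 3 libraries labelled IS-stimulated, where IS is not written out in full. No strain, age, dose or time is used here, and the labels name no library with salvianolic acid B, the compound of the series title. Whether replicates are separate animals or cultures is not stated, so p-values reflect library-to-library spread that could be technical.

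As background, miR-15 and miR-16 repress cyclins and the survival factor BCL2, and the locus of miR-15a and miR-16-1 is lost in many chronic lymphocytic leukaemias. miR-16-5p is abundant in red cells and is often taken as a reference miRNA in blood and plasma, although it is also read as a sign of haemolysis. The paralogues miR-195 and miR-497 are known from the heart, where miR-195 takes part in the exit of heart muscle cells from the cell cycle after birth. miR-322, the mouse counterpart of human miR-424, and its neighbour miR-503 are known from muscle differentiation.

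The mature sequences are shown to compare what the members share with what sets them apart. They are from RefSeq (GRCm38.p6), where all 6 names were matched, written 5′ to 3′ with the seed in capitals.
miR-16-5p: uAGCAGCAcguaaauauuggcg
miR-15b-5p: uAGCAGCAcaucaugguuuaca
miR-15a-5p: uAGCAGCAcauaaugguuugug
miR-195a-5p: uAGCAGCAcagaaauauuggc
miR-497a-5p: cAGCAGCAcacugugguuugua
miR-322-5p: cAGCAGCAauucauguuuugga
Aligned from the 5′ end without gaps, miR-16-5p differed from miR-195a-5p at 2 of 21 bases, from miR-15a-5p at 6 of 22 and from miR-15b-5p at 8 of 22. miR-15a-5p and miR-15b-5p differed at 4 of 22. In RefSeq 10 mouse mature miRNAs carry this seed, and the 5 of them with a row in the table were the 5 members above.

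The hairpins lie in pairs. By GENCODE coordinates on GRCm38 (the authors' build is not stated), Mir15a (chr14:61632027-61632110) and Mir16-1 (chr14:61631880-61631972) are 54 bases apart on the minus strand in an intron of the non-coding gene Dleu2. Mir15b (chr3:69009772-69009835) and Mir16-2 (chr3:69009902-69009996) are 66 bases apart on the plus strand in an intron of Smc4, which encodes a condensin subunit. Mir497 (chr11:70234717-70234800) and Mir195a (chr11:70235042-70235135) are 241 bases apart on the plus strand and outside other annotated genes. Mir322 (chrX:53054255-53054349) and Mir503 (chrX:53053984-53054054) are 200 bases apart on the minus strand, also outside other genes. Both Mir16 hairpins give the same miR-16-5p, so its reads cannot be assigned to either locus, while their opposite (3p) arms differ. The hairpins of miR-16-1, miR-16-2 and miR-15b, whose 3p arms have the most counts of the opposite arms, are shown for this reason, with both mature arms in capitals (RefSeq, GRCm38.p6).
Mir16-1: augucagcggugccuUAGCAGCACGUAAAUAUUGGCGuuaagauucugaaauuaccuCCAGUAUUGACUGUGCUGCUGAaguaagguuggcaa
Mir16-2: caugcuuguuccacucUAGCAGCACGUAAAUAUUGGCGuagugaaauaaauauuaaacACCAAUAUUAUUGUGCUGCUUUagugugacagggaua
Mir15b: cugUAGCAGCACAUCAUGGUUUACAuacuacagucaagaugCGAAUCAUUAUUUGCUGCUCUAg

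Library totals ran from 125731 (IS 3) to 435468 counts (control 3), with IS 2 second at 317323. The floor used for a single value, 3 counts, equals 6.89 to 23.9 CPM (reads per 1000000 reads of the library). Markers of red cells (4 of 4 present: miR-451a, miR-486a-5p and both arms of miR-144) summed to 93435 to 186873 CPM in control and 120628 to 223132 CPM in IS. Those of lymphocytes (4 of 4 present) summed to 858 to 2221 and 576 to 2364 CPM, with miR-155-5p at 0 counts in IS 1. The 3 myeloid markers summed to 5484 to 20929 and 6888 to 25034 CPM. In vesicles, fewer vesicles from a cell type and fewer copies of a miRNA per vesicle cannot be told apart.

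The family was a small part of the vesicle miRNA and consisted almost wholly of miR-16-5p and miR-15b-5p. Over the 6 libraries its members had 1097 of 1533292 counts, of which miR-16-5p took 831 and miR-15b-5p 241. The leukaemia-locus partner miR-15a-5p had 18 counts, miR-497a-5p 5 and miR-195a-5p 2. The family share of all counts was 0.0584, 0.0221 and 0.0912% for control 1 to 3, and 0.0422, 0.113 and 0.0549% for IS 1 to 3. Control 3 and IS 2 were highest and control 2 lowest, and the groups overlapped. The mean was 0.0572 ± 0.0345% in control and 0.0700 ± 0.0376% in IS (SD, n = 3 per group), a difference smaller than either SD.

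**Figure D1:**
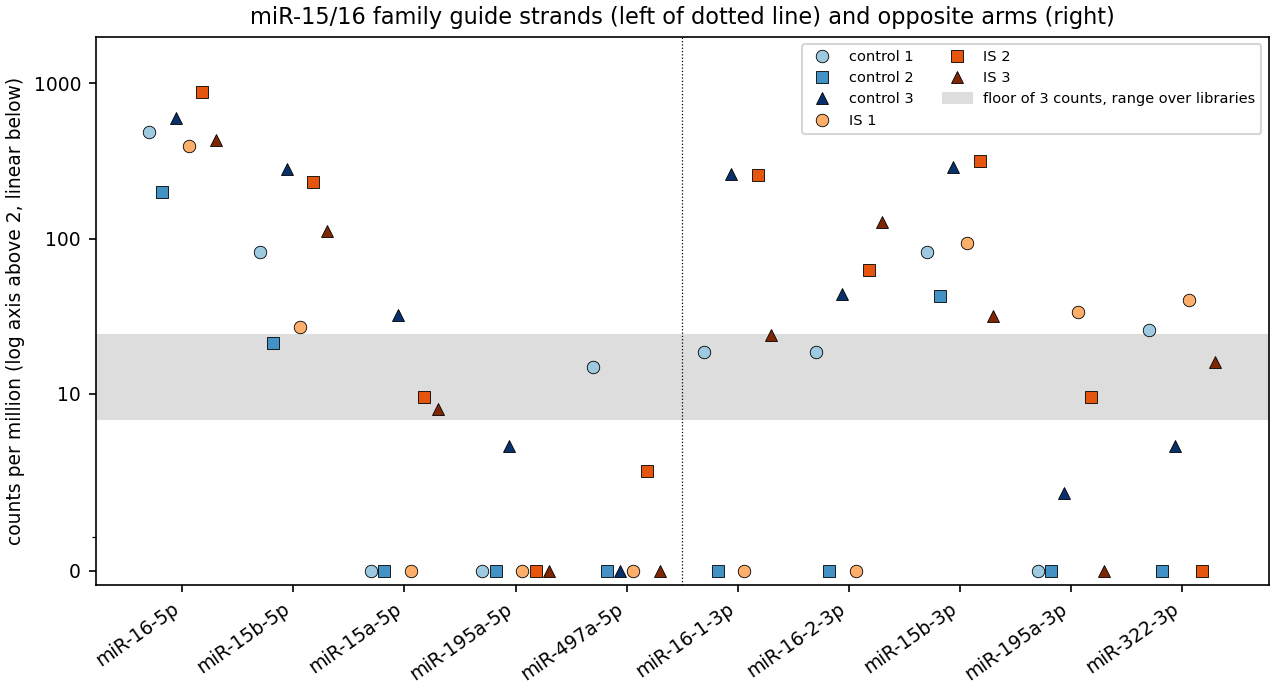
Level of each family guide strand (left of the dotted line) and of the opposite arms with a row (right), in CPM on an axis that is logarithmic above 2 and linear below, with 1 point per library (blue: control, orange: IS). The grey band is the floor of 3 counts over the libraries, and miR-15a-5p, miR-195a-5p and miR-497a-5p lie inside or under it in every library except control 3 for miR-15a-5p.

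miR-16-5p, the most abundant member, was at 488, 199.8 and 595 CPM in control 1 to 3 (132, 47 and 259 counts). In IS 1 to 3 it was at 395, 882 and 429 CPM (59, 280 and 54 counts). IS 2 was highest, control 2 was lowest, and the other 4 libraries lay between, so the groups overlapped. The group means were 428 ± 204 CPM in control and 569 ± 272 CPM in IS. On the log2(CPM + 1) scale the difference, IS minus control, was 0.45, within the spread of either group (SD 0.84 and 0.64, exact two-sided permutation p = 0.6). With 3 libraries against 3 the smallest p this test allows is 0.1. In the edgeR quasi-likelihood fit over 206 tested miRNAs the log2 fold change was 0.44 (SE 0.63, 95% confidence interval -0.96 to 1.84, Benjamini-Hochberg adjusted p = 0.996). It was -0.15 without control 2, where the median of all tested miRNAs was -0.22, and -0.13 without IS 2 (median -0.09). If filter and scaling stayed as in the full set, it was 0.075 without control 2 and -0.075 without IS 2.

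miR-15b-5p, processed with miR-16-2 from the Smc4 intron, was at 81.4, 21.3 and 280 CPM in control 1 to 3 (22, 5 and 122 counts). In IS 1 to 3 it was at 26.8, 233 and 111 CPM (4, 74 and 14 counts). Control 3 and IS 2 were again the highest, each with its group's most counts, while control 2 and IS 1 stood at 4 or 5 counts. The means were 128 ± 136 CPM in control and 124 ± 104 CPM in IS (n = 3 per group). The edgeR quasi-likelihood log2 fold change was 0.02 (SE 1.02, 95% confidence interval -2.22 to 2.26, adjusted p = 0.996), and it ranged from -1.03 without IS 2 to 1.13 without control 3. Its sign also turned with library totals alone as the scaling (-0.04).

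Of the 6 members 2 were tested and 0 passed an adjusted p of 0.05 in edgeR, as for 0 of the 206 miRNAs tested (0%). At an unadjusted p under 0.05 there were 0 of the 2 against 3 of 206 (1.46%), and 0 of the 2 had IS values outside the range of the control values against 3 of 206 (1.46%). DESeq2 called 0 as well, with 14 of 618 at an unadjusted p under 0.05. The median log2 fold change was 0.23 for the 2 tested members and 0.02 for the 206. The interval of miR-16-5p leaves room for a log2 change from -0.96 to 1.84, and that of miR-15b-5p for one past 2 in either direction, so these data set no tighter limit on a difference.

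**Figure D2:**
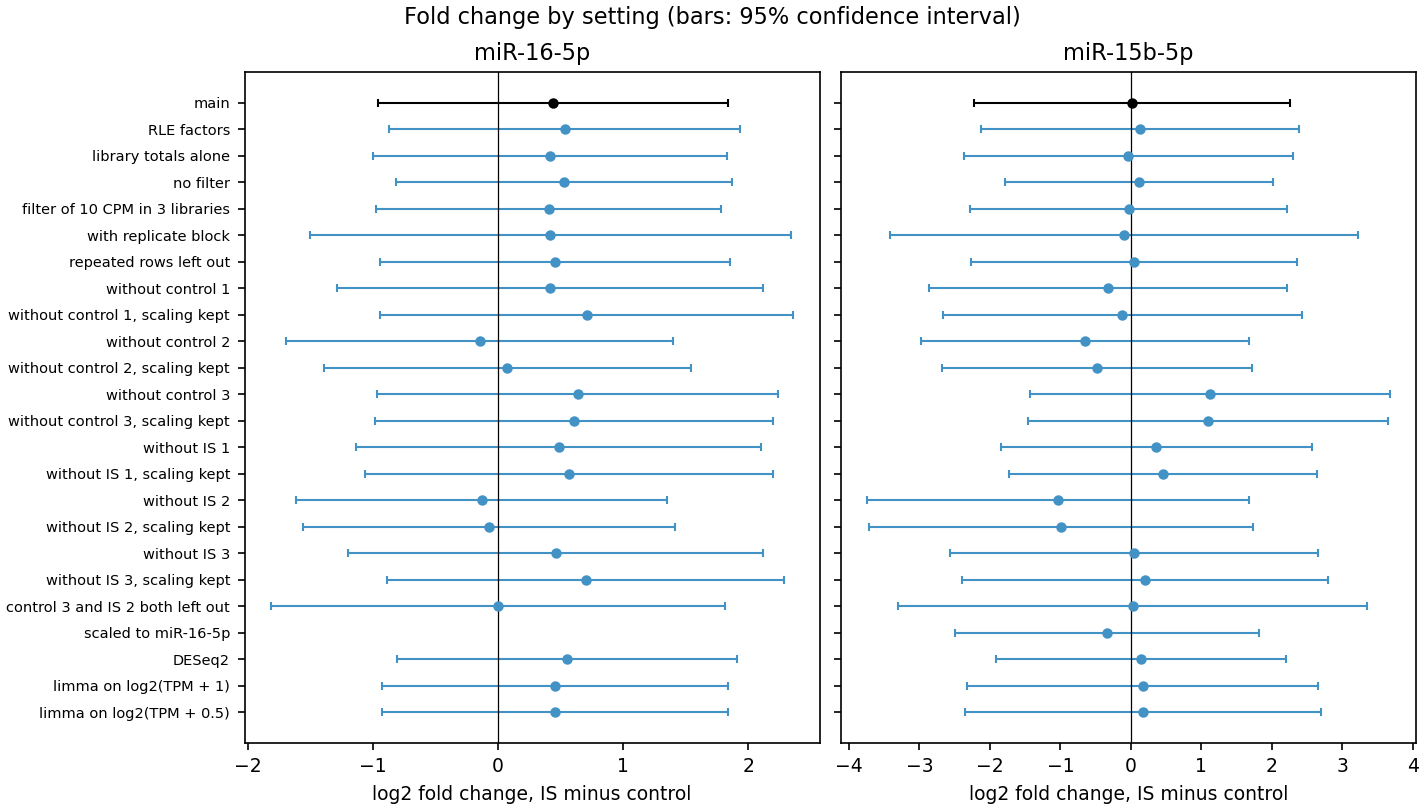
edgeR, DESeq2 or limma log2 fold change (IS minus control) of miR-16-5p and miR-15b-5p on the x axis for each setting on the y axis, with 95% confidence intervals. Every interval shown spans 0, and the estimates of miR-15b-5p run from -1.03 to 1.13.

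The low members gave no fold. miR-15a-5p had 14 counts in control 3, 3 in IS 2, 1 in IS 3 and 0 in the other 3 libraries. Its share of the family in control 3 was 3.53% (95% exact binomial interval 1.94 to 5.85%). In the 3 libraries without a count, the exact intervals reach 2.31% (control 1), 6.85% (control 2) and 5.69% (IS 1) of the family. Each overlaps the interval of control 3, but overlap alone does not decide whether the shares differ, and this was not tested. Such intervals and floors cover counting error only, since the reads carry no molecular identifiers. miR-195a-5p had 2 counts in control 3 and 0 elsewhere, and miR-497a-5p had 4 counts in control 1, 1 in IS 2 and 0 elsewhere. These heart-associated partners of chromosome 11 thus had no library in which both were counted, and their ratio could not be formed. The 3p arm miR-195a-3p had 1 count in control 3, 5 in IS 1 and 3 in IS 2. miR-322-3p had 7, 0 and 2 counts in control and 6, 0 and 2 in IS.

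Within the family, the share of miR-16-5p was 83.5% in control 1, 90.4% in control 2 and 65.2% in control 3, and 93.7, 78.2 and 78.3% in the IS libraries in the same order. It was the largest member in all 6 libraries. miR-15b-5p took 13.9, 9.62 and 30.7% in control and 6.35, 20.7 and 20.3% in IS. Its share in control 3 (95% exact interval 26.2 to 35.5%) lay above the intervals of control 1 (8.94 to 20.3%) and IS 2 (16.6 to 25.2%), so these libraries differed by more than counting error. The partner ratio of miR-15b-5p to miR-16-5p, which needs no scaling, was 16.7, 10.6 and 47.1% in control and 6.78, 26.4 and 25.9% in IS. Its log2 value differed by -0.25 between the groups, IS minus control, which is smaller than the SD of the IS libraries (0.98, n = 3) and that of the control libraries (two-sided exact permutation p = 0.9). Without control 3 the difference was 0.31, and without IS 1 also 0.31. This was the single ratio tested of 4 considered, since miR-15a-5p reached 3 counts in 2 libraries and miR-195a-5p in none.

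**Figure D3:**
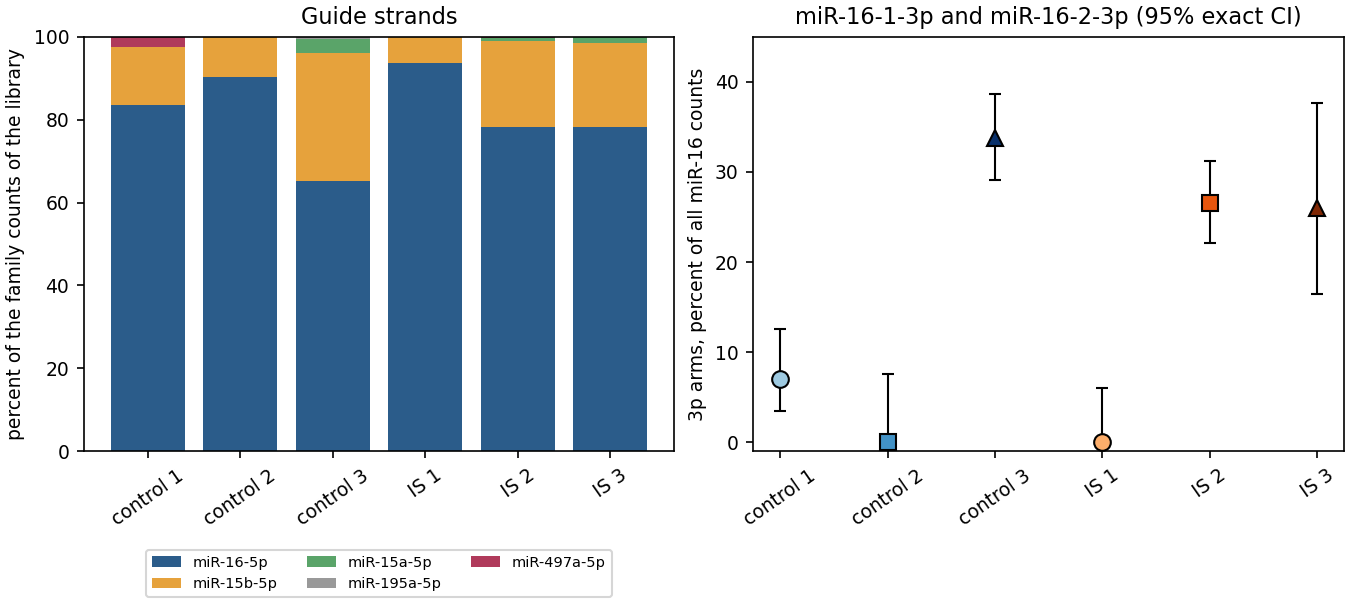
Left: percent of the family counts of each library (y axis) taken by each guide strand, stacked to 100%. Right: miR-16-1-3p and miR-16-2-3p together as percent of all miR-16 counts, with 95% exact binomial intervals. miR-16-5p is the largest part in every library (65.2 to 93.7%), and the 3p share is 0% in control 2 and IS 1 against 33.8% in control 3.

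Of the opposite arms, miR-15b-3p had 276 counts in all, against 241 for miR-15b-5p. miR-15b-3p, from the other side of the Mir15b hairpin, was counted 22, 10 and 126 times across control 1 to 3 and 14, 100 and 4 times across IS 1 to 3. Its counts equalled or exceeded those of miR-15b-5p in 5 of 6 libraries, IS 3 being the exception with 4 against 14. Over the libraries together, the 3p arm took 276 of 517 counts of this hairpin (53.4%). Its share was 22.2% in IS 3 (95% exact interval 6.41 to 47.6%) and 77.8% in IS 1 (52.4 to 93.6%), both IS libraries, and these intervals did not overlap. In edgeR its log2 fold change was 0.26 (SE 0.99, adjusted p = 0.996, quasi-likelihood test), which turned to -0.39 without control 2 and -1.02 without IS 2.

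The 3p arms of miR-16 varied more between libraries than miR-16-5p did. miR-16-1-3p, from the Dleu2 locus, was counted 5, 0 and 113 times across control 1 to 3 and 0, 81 and 3 times across IS 1 to 3. miR-16-2-3p, from the Smc4 locus, had 5, 0 and 19 counts in control and 0, 20 and 16 in IS. Control 3 and IS 2 held nearly all reads of the Dleu2 arm, and they are also the libraries with the most counts. Together these arms were 7.04, 0 and 33.8% of all miR-16 counts in control and 0, 26.5 and 26.0% in IS. The zeros of control 2 and IS 1 have 95% exact upper limits of 7.55 and 6.06%, below the 95% exact intervals of control 3 (29.1 to 38.7%), IS 2 (22.1 to 31.2%) and IS 3 (16.5 to 37.6%). The latter library had the lowest total of all, and 16 of its 19 counts of these arms were miR-16-2-3p. The part of depth in these shares was not tested.

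The proportion of the 3p arms of the miR-16 hairpins also differed between libraries. The Dleu2 arm was 85.6% of the 3p counts in control 3 (95% exact interval 78.4 to 91.1%) and 80.2% in IS 2 (71.1 to 87.5%). In IS 3 it was 15.8% (3.38 to 39.6%, 3 of 19 counts), outside both intervals. Control 1 had 5 of 10. The other product of the Dleu2 locus did not have such a share: miR-15a-5p was 10.3% of miR-15a-5p and miR-15b-5p together in control 3 and 3.90% in IS 2. Whether either proportion reflects the output of the loci was not tested. miR-16-2-3p passed the filter on low counts and had a log2 fold change of 1.43 (SE 1.47, edgeR quasi-likelihood adjusted p = 0.996). It was 0.63 without IS 3, 0.74 without control 2 and 2.36 without control 3. Of the 7 opposite arms 5 had a row, 2 were tested and 0 passed the threshold. Differences in level between miRNAs also depend on how well each sequence was captured in library preparation, which was not measured.

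As a reference, miR-16-5p was neither among the steadiest nor among the most variable miRNAs. Its highest level was 4.42 times its lowest, its coefficient of variation was 45.9%, and the SD of its log2(CPM + 1) over the 6 libraries was 0.71, rank 65 of 206 from the steadiest (median of the 206, 0.90). Counting error alone would give an SD of about 0.16 at its counts. Of 13 miRNAs often used as references in blood or vesicles, it was the 9th in order of SD. miR-25-3p, of the miR-106b cluster, was steadiest with an SD of 0.16 and levels of 2980 to 4068 CPM. miR-484 followed at 0.21, but with 11 to 34 counts, where counting error alone is about 0.34. miR-191-5p, miR-103-3p and miR-30e-5p had SDs of 0.42, 0.42 and 0.43, and the most variable of the list was miR-423-3p at 0.95.

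The order depended on the scaling. With TMM factors miR-103-3p had an SD of 0.21 (rank 2 of 206), miR-25-3p 0.37 (rank 16) and miR-16-5p 0.78 (rank 86). Control 2 was the library farthest from the rest for miR-16-5p, and without it the SD was 0.46. Among the family, miR-15b-5p had an SD of 1.52 (rank 166) and miR-15b-3p 1.36 (rank 155), about as variable as each other and more so than miR-16-5p. For these, counting error would give 0.45 and 0.41.

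**Figure D4:**
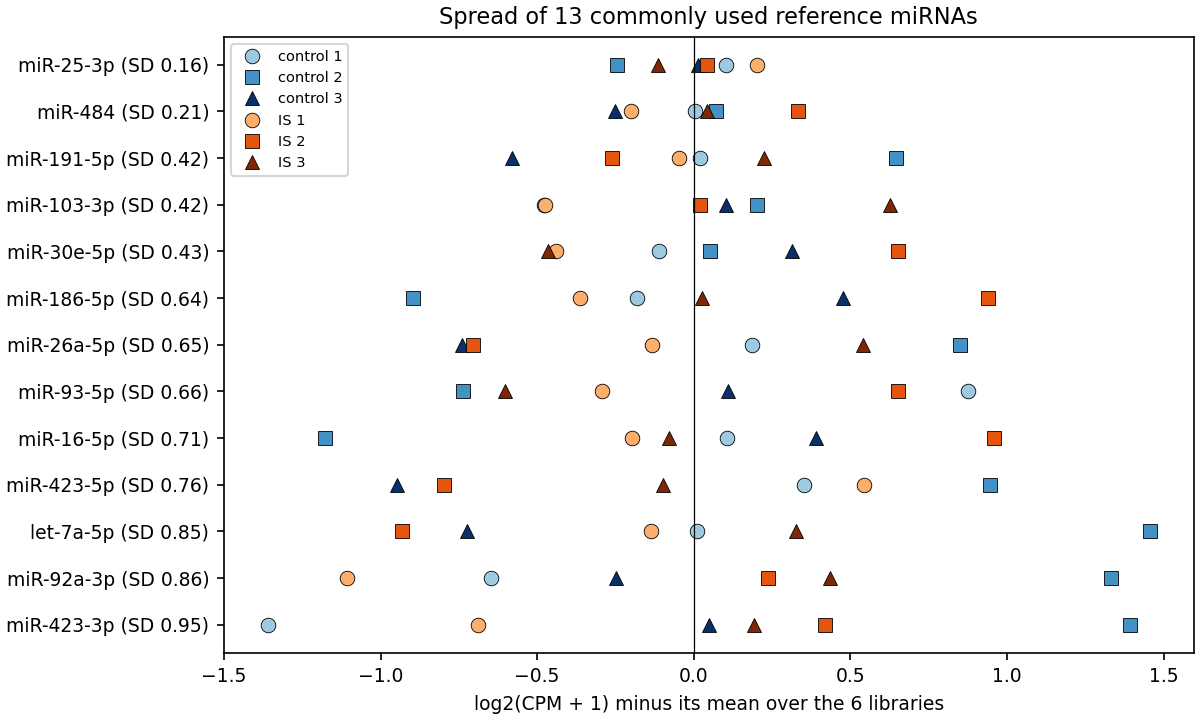
log2(CPM + 1) of 13 reference miRNAs minus its mean over the 6 libraries (x axis), 1 point per library, ordered by SD. The points of miR-25-3p lie close to 0 (SD 0.16), while miR-16-5p (SD 0.71) has control 2 far to the left and IS 2 far to the right.

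The miRNAs most like miR-16-5p were sought as those whose log2 ratio to it varied least over the 6 libraries, among 193 tested miRNAs with repeated rows counted once. These were miR-186-5p (SD of the ratio 0.20), miR-140-5p (0.21), miR-652-3p (0.28), the red cell miRNA miR-451a (0.30) and miR-1964-3p (0.32), against a median of 1.24. They are the smallest of 193 values, and miR-140-5p had only 11 to 52 counts, miR-652-3p 12 to 62 and miR-1964-3p 18 to 71. For miR-484, at 11 to 34 counts, counting error alone is about 0.34. The ratios of these 3 are thus near counting error, and the order of the 5 is not settled. miR-186-5p was at 2216, 1352 and 3497 CPM in control and 1957, 4822 and 2561 CPM in IS, with the same lowest and highest libraries as miR-16-5p. The locus partner miR-15b-5p was at rank 70 (SD 0.99) and miR-15b-3p at rank 58 (0.93). Such ratios within a library share its depth and composition, so they are given as a description.

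miR-451a, which matures without Dicer and fills red cells, was 159 to 283 times as abundant as miR-16-5p. There were 5.64, 3.53 and 4.94 counts of miR-16-5p per 1000 of miR-451a in control and 4.73, 6.29 and 4.15 in IS. This ratio spanned 1.78-fold, against 4.42-fold for the CPM of miR-16-5p. The marker lists were not uniform in this respect. The red cell sum, mostly miR-451a, was lowest in control 2 (93435 CPM) and highest in IS 2 (223132 CPM), but miR-486a-5p was lowest in control 1 (26567 CPM) and miR-144-3p in IS 3 (119 CPM). By the spread of the ratio to miR-16-5p, miR-486a-5p, miR-144-3p and miR-144-5p ranked 16, 34 and 52 of 193 (SD 0.56, 0.72 and 0.86), against 4 for miR-451a. Of the myeloid list, miR-142a-5p ranked 7 (SD 0.42), miR-142a-3p 15 (0.56) and miR-223-3p 163 (2.05). The myeloid sum, mostly miR-142a-5p, was also lowest in control 2 (5484 CPM) and highest in IS 2 (25034 CPM), whereas the myeloid miRNA miR-223-3p was lowest in IS 2 (18.9 CPM) and at 208 CPM in control 2. The platelet and vessel wall sum was lowest in IS 2 (6895 CPM) and stood at 25825 CPM in control 2. The lymphocyte sum was lowest in IS 1 (576 CPM) and highest in IS 2 (2364 CPM). Of the lymphocyte list, miR-342-3p ranked 60 (SD 0.94), miR-181a-5p 80 (1.10), miR-150-5p 101 (1.28) and miR-155-5p 184 (2.98). The part of any of these cell types, or of depth, in the level of miR-16-5p was not tested.

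**Figure D5:**
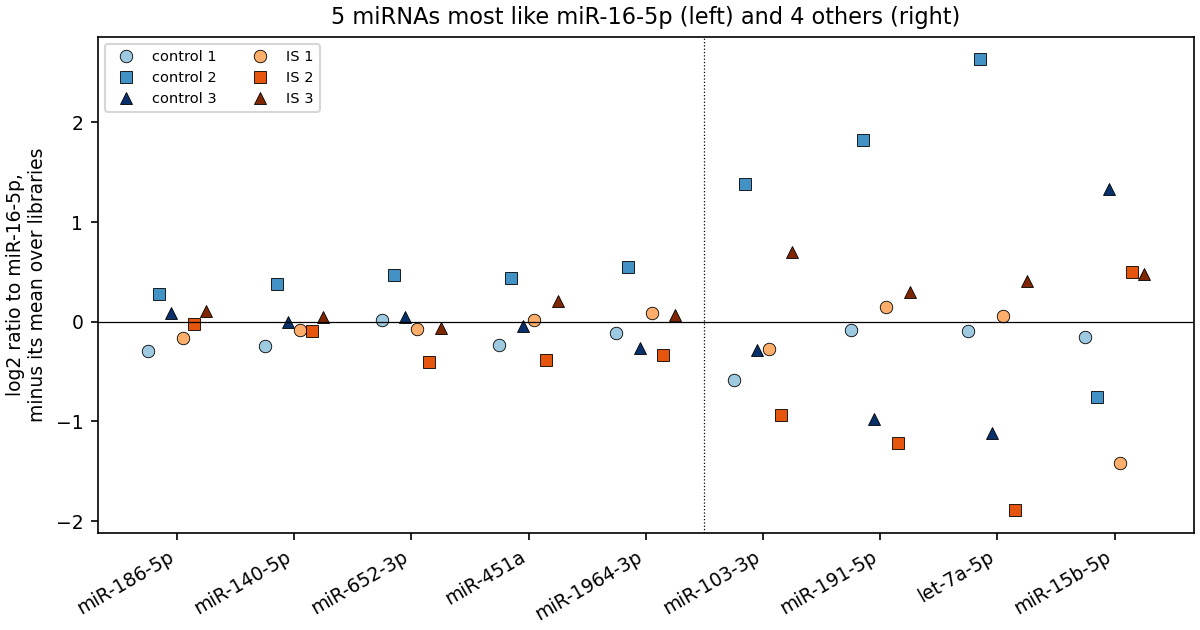
log2 ratio of each miRNA to miR-16-5p minus its mean over libraries (y axis), 1 point per library, for the 5 miRNAs of smallest spread (left of the dotted line) and 4 others. The 5 at left have SDs of 0.20 to 0.32, while miR-15b-5p, encoded beside miR-16-2, has 0.99.

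Relatives by seed or position were read from a list of 12 further miRNAs, of which 9 had a row, 5 were tested and 0 passed the edgeR threshold (median log2 fold change 0.15). miR-103-3p and miR-107-3p, which carry AGCAGCA one base nearer the 5′ end and act on insulin signalling, were above miR-15b-5p in every library.
miR-103-3p: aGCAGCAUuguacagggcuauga
miR-107-3p: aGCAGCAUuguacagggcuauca
miR-103-3p was at 869, 1394 and 1302 CPM in control and 871, 1229 and 1869 CPM in IS, above miR-16-5p in every library. For miR-107-3p the range was 129 to 448 CPM in control and 107 to 504 CPM in IS, with control 3 and IS 2 highest. Their log2 fold changes were 0.15 (SE 0.46) and 0.39 (SE 0.70), both with an edgeR adjusted p of 0.996. Without control 1 they were -0.25 and -0.09, where the median of all tested miRNAs was -0.27. Single libraries also turned the sign of miR-103-3p without control 2 (-0.0098) or IS 3 (-0.32), and that of miR-107-3p without IS 2 (-0.23).

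The X-linked neighbours of miR-322 were low. miR-503-5p, whose seed differs from that of the family at 1 base, was counted 4, 3 and 22 times across control 1 to 3 and 19, 11 and 2 times across IS 1 to 3.
miR-503-5p: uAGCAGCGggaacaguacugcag
Its highest level was in IS 1 (127 CPM) and its lowest in control 2 (12.8 CPM), with overlapping groups. miR-351-5p ranged from 23.9 to 94.5 CPM, miR-542-3p from 0 to 119 CPM and miR-450a-5p from 0 to 126 CPM. Their log2 fold changes were 0.24, -0.11 and 0.01, and none of the 3 passed the edgeR threshold.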

How the data were processed

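Per the labels' protocols, vesicle RNA came from an exoRNeasy Maxi kit and libraries from a NEBNext small RNA kit. The submitters' processing notes list CASAVA 1.8 and Bowtie, with no role given. The build, miRBase release, filters and strand use were not given in the sources used here. How reads matching several family members were assigned is likewise not stated. The authors deposited 1 table with a read count and a value headed TPM per library. That TPM equals the count over the library total times 1000000 (largest difference 4.8e-10), and it is called CPM here.

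Counts were tested with edgeR's quasi-likelihood F test on the whole table (TMM factors, filterByExpr with minimum count 10 and minimum total 15, group as the only term), with Benjamini-Hochberg adjustment over 206 miRNAs. The filter left 2 of the 6 members. SE is the fold change over the square root of F. Single values were compared by exact permutation over the 10 splits. Repeated rows (total of at least 50 counts) differed from another row by at most 2 counts or 6% in each library, and 12 were surplus. The surplus rows held 10.0 to 18.8% of the counts of a library and are part of the totals behind each CPM and share. Without them the SD of miR-16-5p was 0.76, against 0.71 with all rows, and the difference in family share 0.016%, against 0.013%. No family member or opposite arm was among the repeated rows. No 2 libraries agreed within sampling noise (lowest chi-square per degree of freedom 23.5).

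Named were all members, their opposite arms, the related and reference lists, and the 5 miRNAs most like miR-16-5p. Members and lists were chosen with earlier results of these data known. Alternatives were RLE factors, library totals, other filters, a replicate block, each library left out, repeated rows left out, DESeq2 and limma. The scripts were tested on simulated data. Fits used edgeR 4.0.16, DESeq2 1.42.0 and limma 3.58.1 in R 4.3.3. Permutations and intervals used scipy 1.17.1 in Python 3.11.15.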

Additional observations from a re-analysis of the deposited data

How the results depend on the processing

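Leaving out control 3 and IS 2 together, and scaling to miR-16-5p, were chosen after seeing the data. The number of miRNAs past the threshold was 0 in all 23 alternatives (edgeR, DESeq2 or limma). The log2 fold change of miR-16-5p lay between -0.15 and 0.64 with 1 library left out (-0.075 to 0.71 if scaling and filter stay as in the full set), and was -0.00055 without control 3 and IS 2. That of miR-15b-5p lay between -1.03 and 1.13 (-0.99 to 1.09 with both held likewise). It was -0.48 without control 2 on the latter basis, -0.037 with library totals alone, -0.032 with the filter of 10 CPM, and -0.34 scaled to miR-16-5p. That of miR-15b-3p lay between -1.02 and 1.25 (-0.95 to 1.22 with both held likewise, -0.16 without control 2), and was -0.12 without control 3 and IS 2, -0.36 scaled to miR-16-5p and -0.027 and -0.028 in limma with a pseudocount of 1 and 0.5. The log2 ratio of miR-15b-5p to miR-16-5p lay between -0.65 and 0.31, and was 0.036 without control 3 and IS 2. The log2(CPM + 1) difference of miR-16-5p lay between -0.021 and 0.76. Scaled to miR-16-5p, the median log2 fold change of the tested miRNAs was -0.51, against 0.02 with TMM factors. Not every miRNA moved down: miR-16-2-3p was at 1.53, against 1.43 with TMM factors. The signs of miR-15b-5p and miR-15b-3p at that scaling are no separate result. The cause of the other turns was not tested. The SD of miR-16-5p over libraries was 0.46 to 0.79, and the difference in family share -0.0087 to 0.0297%.

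Whether libraries of the same number are paired cannot be decided from 3 libraries per group. Deviations from the group means correlated at 0.31, -0.33 and -0.05 for numbers 1 to 3. The highest correlation between a control and an IS library was 0.53, for control 3 and IS 2, which bear different numbers. With the replicate block the log2 fold changes of miR-16-5p and miR-15b-5p were 0.42 and -0.095, the number of calls stayed 0, and the log2 ratio was -0.25. Depth limits miR-15a-5p, miR-195a-5p and miR-497a-5p, which had 18, 2 and 5 counts in all.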

Other observations

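Scaling to miR-16-5p was chosen after seeing the data. With TMM factors miR-16-5p itself had a log2 fold change of 0.44, which turned sign without control 2 or IS 2 (-0.15 and -0.13). If filter and scaling stayed as in the full set, that of miR-16-5p was 0.075 without control 2 and -0.075 without IS 2. With the libraries scaled to its count, the median log2 fold change of the 206 tested miRNAs was -0.51, against 0.02 with TMM factors, and 0 passed the edgeR threshold at either scaling (0 and 3 at an unadjusted p under 0.05). At that scaling the log2 fold change was -1.53 (SE 1.10) for let-7a-5p and -0.46 (SE 0.78) for miR-103-3p, and with TMM factors -0.68 (SE 0.60) and 0.15 (SE 0.46), none of them past the edgeR threshold. The haemolysis ratio, miR-451a over miR-23a-3p in log2 counts, was 5.96 ± 0.44 in control and 6.14 ± 0.09 in IS (SD, n = 3 per group), with control 1 highest (6.41) and control 2 lowest (5.53).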
